A study of Homo sapiens with 6 samples.

Results

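The 10 genes described here belong to the BCL2 family, whose proteins decide whether the outer mitochondrial membrane stays intact. They were chosen by symbol: the survival genes BCL2, BCL2L1, MCL1 and BCL2A1, the effector genes BAX and BAK1, and the BH3-only genes BBC3, BCL2L11, BMF and PMAIP1. All 10 were found among the 26364 genes of the deposited table, and 9 passed the filter on low values, which asked for 10 normalized counts or more on average. RNA came from MV4-11, an established human acute myeloid leukaemia line that carries an internal tandem duplication of the receptor kinase gene FLT3. Cells received 22d, known as an inhibitor of the deacetylase HDAC8, at 10 nM for 18 hours in 3 libraries, or the vehicle DMSO for 18 hours in 3 libraries. Both groups are the same line in the same medium, so the data describe 1 line and 1 time point. Whether the libraries of a group stem from different cultures is not stated, so the p-values speak to the spread among these samples alone, and that spread may be technical.

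In the mitochondrial pathway of cell death, the effectors BAX and BAK1 form pores in the outer membrane, through which cytochrome c reaches the cytosol and starts the caspases. Survival proteins hold effectors and BH3-only proteins in check by binding the BH3 segment in a surface groove. BH3-only proteins relay stress signals by filling that groove or by acting on the effectors directly. Myeloid leukaemia cells often rely on BCL2 and MCL1, and the BCL2 inhibitor venetoclax is used against this disease. Transcript levels are what was measured here; several of these proteins, MCL1 above all, are also controlled by how fast they are degraded.

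Libraries held between 19995430 and 23749257 reads in genes, and a single read equalled 0.839 to 1.14 normalized counts. Along the first principal component, which took up 80.5% of the variance and set the groups apart, 22d replicate 1 lay furthest out. 22d replicate 3 also stood apart, with reads in 19285 genes, against 16268 to 17055 in the other libraries. It held the only T cell marker reads (2 of CD3E and 1 of CD3G), and COL1A1 had 3, 7 and 18 reads with 22d, against 2, 1 and 1 with DMSO. Of 10 myeloid marker genes all passed the filter, with a summed level of 57310 to 68770 normalized counts with 22d and 84090 to 103900 with DMSO. The lower sum came from LYZ, the gene of the enzyme lysozyme, with 16620 normalized counts with 22d and 44820 with DMSO; the other 9 summed to 45900 to 49250 with 22d and 44540 to 53210 with DMSO, which overlap. Of these markers, FLT3, CSF1R and CSF3R rose (0.42, 0.78 and 0.29 on the log2 scale), LYZ fell and 6 did not pass, with a list median of 0.16. T cell markers were at or near 0, with a sum of at most 2.52 normalized counts in any library. B cell markers summed to 100.4 to 146.9 normalized counts with 22d and 148.1 to 196.5 with DMSO, with MS4A1 at 0 in every library. Erythroid markers summed to 10.04 to 20.15 with 22d and 15.51 to 37.55 with DMSO. The genes listed as epithelial or stromal summed to 812 to 911 with 22d and 354 to 479 with DMSO, nearly all of it from KRT8 and PECAM1. PECAM1, which is not particular to such cells, held 529.2 normalized counts with 22d and 249.0 with DMSO. KRT8 held 329.2 with 22d and 157.0 with DMSO. COL1A2 was at 0 in every library, and EPCAM had 0, 1 and 5 reads with 22d and 0 reads in each DMSO library. The part of these markers in the changes below was not tested. In RNA from a bulk culture, fewer cells that express a gene and less RNA per cell cannot be told apart.

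Sequences are shown for the promoters of the 4 members that changed, of BCL2L11, whose window holds a FOXO motif in a study whose title names FOXO factors, and of BAX, whose window holds 4 E-boxes. Each runs from 250 bases before to 50 bases after the RefSeq start (build GRCh38.p14), 5′ to 3′ on the strand of the gene. Capitals mark the E-box CACGTG, the FOXO motif GTAAACA, the GC box GGGCGG and the CCAAT box CCAAT, each on either strand.
BBC3 (chr19:47232618-47232917, minus strand): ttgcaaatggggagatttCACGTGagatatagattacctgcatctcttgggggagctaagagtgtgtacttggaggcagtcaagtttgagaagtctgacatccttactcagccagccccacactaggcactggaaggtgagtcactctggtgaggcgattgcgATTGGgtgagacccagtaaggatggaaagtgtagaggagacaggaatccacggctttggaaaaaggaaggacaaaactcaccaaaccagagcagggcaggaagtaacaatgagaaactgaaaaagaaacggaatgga
BMF (chr15:40108830-40109129, minus strand): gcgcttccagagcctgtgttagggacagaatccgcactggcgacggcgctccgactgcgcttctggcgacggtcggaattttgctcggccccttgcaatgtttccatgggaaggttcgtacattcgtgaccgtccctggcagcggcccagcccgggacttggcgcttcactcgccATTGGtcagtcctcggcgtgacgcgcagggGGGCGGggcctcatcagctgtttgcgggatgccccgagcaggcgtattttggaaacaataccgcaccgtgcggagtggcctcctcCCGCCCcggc
PMAIP1 (chr18:59899746-59900045, plus strand): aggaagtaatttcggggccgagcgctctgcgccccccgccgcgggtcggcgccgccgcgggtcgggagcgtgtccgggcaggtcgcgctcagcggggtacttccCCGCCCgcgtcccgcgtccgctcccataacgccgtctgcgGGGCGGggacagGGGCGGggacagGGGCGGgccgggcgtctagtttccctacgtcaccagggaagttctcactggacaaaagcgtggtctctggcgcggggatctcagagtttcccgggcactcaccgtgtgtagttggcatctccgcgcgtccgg
BAK1 (chr6:33580227-33580526, minus strand): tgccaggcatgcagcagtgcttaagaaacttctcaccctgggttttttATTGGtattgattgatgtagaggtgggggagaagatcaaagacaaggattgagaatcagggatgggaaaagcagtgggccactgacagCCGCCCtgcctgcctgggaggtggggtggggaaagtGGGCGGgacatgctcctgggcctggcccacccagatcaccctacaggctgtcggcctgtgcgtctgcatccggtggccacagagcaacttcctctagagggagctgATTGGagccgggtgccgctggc
BCL2L11 (chr2:111120664-111120963, plus strand): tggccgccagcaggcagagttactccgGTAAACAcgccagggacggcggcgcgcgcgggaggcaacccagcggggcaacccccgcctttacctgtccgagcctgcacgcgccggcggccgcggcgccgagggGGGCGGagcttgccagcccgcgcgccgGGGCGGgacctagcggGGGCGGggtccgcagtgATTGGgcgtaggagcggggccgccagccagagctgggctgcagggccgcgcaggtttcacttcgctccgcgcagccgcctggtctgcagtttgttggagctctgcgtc
BAX (chr19:48954625-48954924, plus strand): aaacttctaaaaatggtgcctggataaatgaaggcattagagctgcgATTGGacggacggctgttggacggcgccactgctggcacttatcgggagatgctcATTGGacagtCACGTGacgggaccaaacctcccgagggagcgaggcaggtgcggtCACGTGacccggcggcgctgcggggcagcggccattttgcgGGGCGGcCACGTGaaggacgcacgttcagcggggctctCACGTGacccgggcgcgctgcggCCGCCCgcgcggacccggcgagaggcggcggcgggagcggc

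RefSeq windows were matched for 9 of the 10 members, and MCL1 was not matched. The BBC3 window, with 48.0% G and C the poorest of those printed, held 1 E-box at position -232 from the start and 1 CCAAT box at -87, and no GC box. The BMF window, the first of 2 RefSeq starts of that gene, held GC boxes at -45 and 41 and a CCAAT box at -75. PMAIP1, with 71.3% G and C, held 4 GC boxes between -146 and -82, and BAK1 held 2 GC boxes at -114 and -78 and 2 CCAAT boxes at -202 and 29. BCL2L11 alone among the matched members held the FOXO motif, at -223. BAX held E-boxes at -138, -93, -45 and -14. These motifs did not overlap each other in the printed windows. Among all 35116 RefSeq windows, 7.26% held an E-box, 3.42% the FOXO motif, 45.0% a GC box and 34.6% a CCAAT box. The motifs TTTCGCGC of E2F factors (0.515% of windows) and TGACGTCA of CREB factors (1.85%) were searched on both strands and found in no window of a member. A match is a description of letters and not of binding, and the counts per gene do not separate alternative starts.

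Of the 9 members tested, the BH3-only genes BBC3 and BMF rose, the BH3-only gene PMAIP1 and the effector gene BAK1 fell, and 5 did not pass. The test was limma on log2(normalized count + 1), where a call meant p under 0.05 after Benjamini-Hochberg adjustment across the 13297 tested genes. By that rule 58.0% of all genes tested were called, 28.5% higher and 29.6% lower, so the count of 4 among 9 members was not above that background. The median log2 fold change of the 9 was -0.13, beside 0.01 over all genes tested. In 5 members, the 4 called ones and MCL1, the libraries of the groups did not overlap, as in 65.4% of all genes tested (32.1% higher, 33.3% lower with 22d). With scaling by library totals in place of the deposited scaling, the all-gene median log2 fold change became 0.22 and 65.6% of calls were higher, against 49.0%, so changes below are relative to the deposited scaling. The calls of BBC3, BMF, PMAIP1 and BAK1 held in each of the 16 alternative settings.

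**Figure D1:**
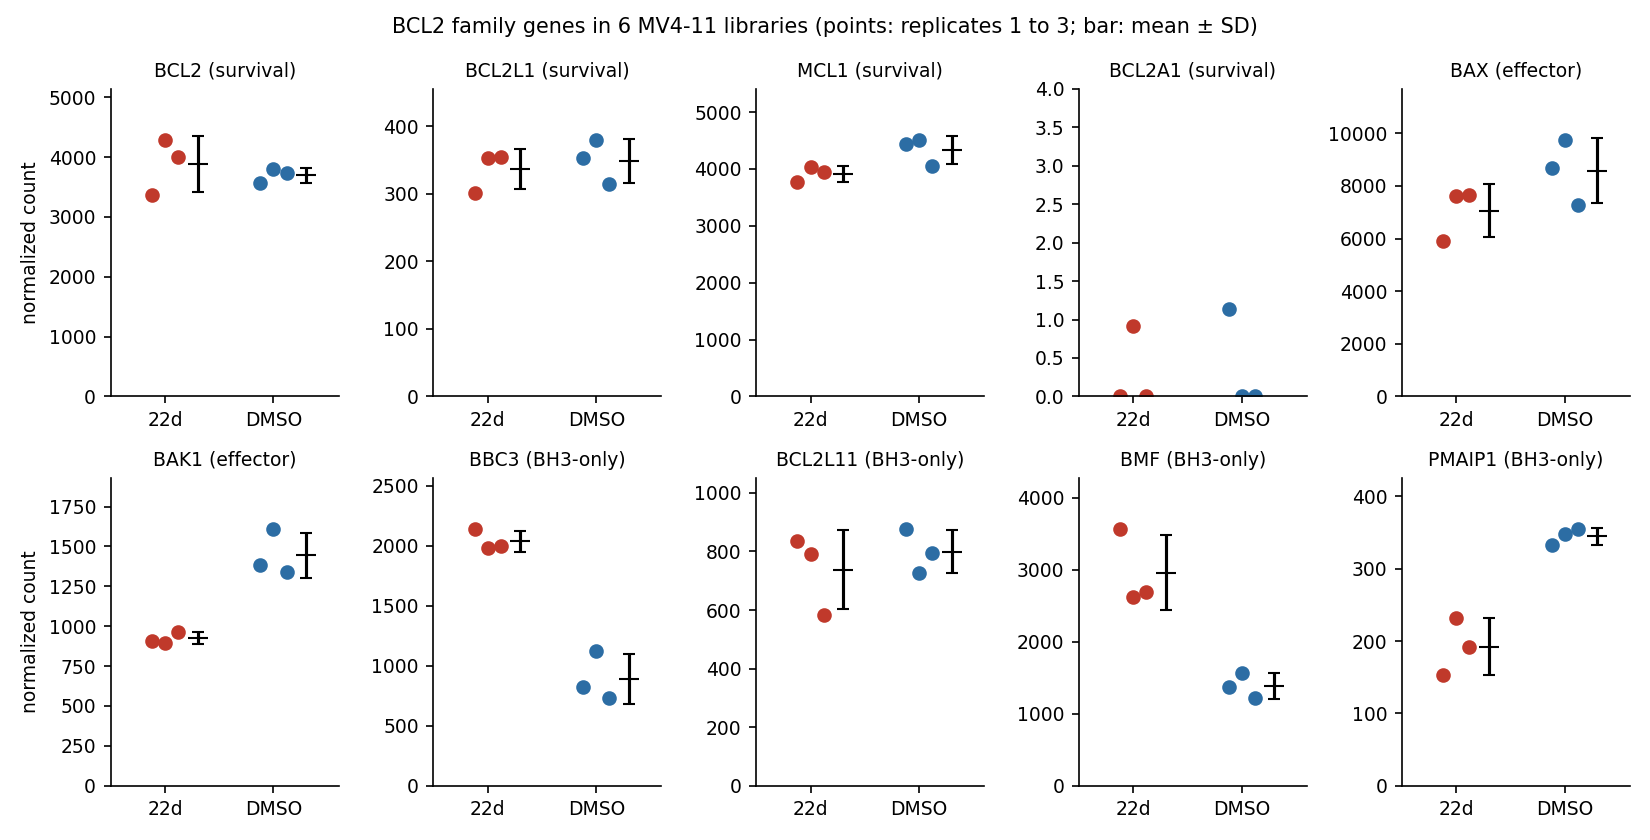
Normalized counts of the 10 genes in each library, 22d in red and DMSO in blue, points for replicates 1 to 3 from left to right and bars for mean ± SD (none for BCL2A1); each vertical axis starts at 0. BBC3 and BMF lie higher in all 3 libraries with 22d, PMAIP1 and BAK1 lower, and BCL2A1 had at most 1 read in any library.

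BBC3 encodes PUMA, a BH3-only protein that binds all survival members. The gene lies on chromosome 19 (47220822 to 47232766, minus strand, GENCODE 29 on GRCh38). BBC3 held 2137, 1980 and 1998 normalized counts with 22d, against 819, 1120 and 727 with DMSO. The 3 libraries with 22d lay close together, and the lowest of them was well above DMSO replicate 2, the highest of its group. The group means were 2038 ± 85.8 with 22d, against 889 ± 205 with DMSO (n = 3 each, ± SD). On the log2 scale BBC3 rose by 1.22 with an SE of 0.14 (limma adjusted p = 1.3e-05), a 2.33-fold rise with a 95% interval of 1.88 to 2.89. Of all genes tested, 6.72% had a larger rise. The spread with DMSO, a coefficient of variation of 23.1%, was wider than the 3.88% that counting alone gives at the fewest reads. Without DMSO replicate 2 the log2 fold change was 1.40, and without DMSO replicate 3 it was 1.09.

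BMF encodes a BH3-only protein that, in healthy cells, is bound to the myosin V motor and that is released upon damage or loss of attachment. It lies on chromosome 15 (40087890 to 40108892, minus strand). BMF held 3562, 2628 and 2688 normalized counts with 22d, against 1371, 1572 and 1218 with DMSO. The groups did not overlap, and 22d replicate 1 stood above the other two libraries with 22d. Means were 2960 ± 523 with 22d, against 1387 ± 178 with DMSO (n = 3 each, ± SD), and BMF rose by 1.09 on the log2 scale with an SE of 0.14 (limma adjusted p = 2.2e-05). That is a 2.12-fold rise with a 95% interval of 1.73 to 2.61, and without 22d replicate 1 the log2 fold change was 0.95.

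PMAIP1 encodes NOXA, a BH3-only protein that binds MCL1 and the product of BCL2A1 in preference to BCL2. It lies on chromosome 18 (59899948 to 59904306, plus strand). PMAIP1 held 152.5, 231.8 and 192.2 normalized counts with 22d, against 332.3, 347.5 and 354.3 with DMSO. All 3 libraries with 22d were below all with DMSO, and 22d replicate 1 was the lowest. Means were 192.2 ± 39.7 with 22d, against 344.7 ± 11.3 with DMSO (n = 3 each, ± SD). The change was -0.86 on the log2 scale with an SE of 0.16 (limma adjusted p = 0.00061), which is 0.551 times the DMSO level with a 95% interval of 0.431 to 0.704. PMAIP1 and BBC3 thus passed in opposite directions. With 156 to 336 reads per library, counting alone gives a coefficient of variation of up to 8.01%, against 20.6% seen with 22d.

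BCL2L11, which encodes BIM, a BH3-only protein that can act on BAX and BAK1 directly, did not pass. It held 836.8, 792.2 and 584.3 normalized counts with 22d, against 875.1, 728.1 and 794.2 with DMSO. The groups overlapped, and 22d replicate 3 was the lowest library of all. The log2 fold change was -0.13 (95% interval -0.44 to 0.18, limma adjusted p = 0.46), and it was 0.03 without 22d replicate 3. On chromosome 2 (111119378 to 111168447), 10.9% of its exonic bases also belong to exons of MIR4435-2HG on the opposite strand, which held 240.2 normalized counts with 22d and 372.2 with DMSO. The strand setting of the counting was not given in the sources used here, so whether reads in shared bases were assigned or dropped is not known. The same limit applies to BMF and the antisense gene BMF-AS1, which share 8.46% of the exonic bases of BMF.

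BAK1 encodes the effector BAK, which sits in the outer mitochondrial membrane in healthy cells and is held there by MCL1 and BCL-XL. It lies on chromosome 6 (33572547 to 33580293, minus strand). BAK1 held 909.2, 896.2 and 966.2 normalized counts with 22d, against 1383, 1606 and 1340 with DMSO. The groups did not overlap and the libraries with 22d were close to each other. Means were 923.9 ± 37.3 with 22d, against 1443 ± 142.8 with DMSO (n = 3 each, ± SD). BAK1 had a change of -0.64 on the log2 scale with an SE of 0.11 (limma adjusted p = 0.00031). BAK1 with 22d was 0.642 times its level with DMSO, with a 95% interval of 0.543 to 0.759, and 19.3% of all genes tested fell further.

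BAX encodes the effector that moves from the cytosol to the mitochondria on activation; it lies on chromosome 19 (48954815 to 48961798, plus strand). BAX held 5901, 7633 and 7664 normalized counts with 22d, against 8700, 9737 and 7287 with DMSO. The groups overlapped, since DMSO replicate 3 lay below 22d replicates 2 and 3. The log2 fold change was -0.28 with a 95% interval of -0.57 to 0.01 (limma adjusted p = 0.088). Without DMSO replicate 3 it was -0.39 and passed (adjusted p = 0.028), with adjusted p between 0.028 and 0.675 over all alternatives, and under quantile normalization its sign turned (0.06). The test of BAX against BAK1 itself was not made.

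Among the survival genes none passed. BCL2, on chromosome 18 (63123346 to 63320128, minus strand), is the founding member and the target of venetoclax. It held 3365, 4282 and 3994 normalized counts with 22d, against 3561, 3793 and 3730 with DMSO. The libraries with 22d lay on both sides of the DMSO ones, and the log2 fold change was 0.06 (95% interval -0.17 to 0.30, limma adjusted p = 0.63). BCL2 passed as higher under quantile normalization (0.37, adjusted p = 0.00996) and under scaling by library totals (0.29, adjusted p = 0.0316), the second with all genes shifted by 0.22.

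MCL1, on chromosome 1 (150574551 to 150579738, minus strand), encodes a short-lived survival protein that early myeloid cells depend on. MCL1 held 3763, 4026 and 3948 normalized counts with 22d, against 4430, 4504 and 4054 with DMSO. The groups did not overlap, yet the lowest DMSO library was close to the highest with 22d. The log2 fold change of -0.15 did not pass (95% interval -0.36 to 0.07, limma adjusted p = 0.22), and its sign turned with scaling by library totals (0.08) and quantile normalization (0.17).

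BCL2L1, which encodes BCL-XL, held 302.1, 353.2 and 355.1 normalized counts with 22d, against 352.8, 379.6 and 314.8 with DMSO. These ranges overlapped, with a log2 fold change of -0.05 (95% interval -0.35 to 0.25, limma adjusted p = 0.77). On chromosome 20 (31664452 to 31723989), 43.0% of the exonic bases of BCL2L1 also lie in exons of the antisense gene ABALON, which held 23.6 normalized counts with 22d and 30.0 with DMSO. The gene also gives a long survival form and a short form that promotes death, which counts per gene do not separate. BCL2A1, an NF-kB target gene that encodes the survival protein BFL-1, had 0, 1 and 0 reads with 22d and 1, 0 and 0 reads with DMSO. A count of 0 allows up to 3 reads, or 2.52 to 3.41 normalized counts depending on the library, so a change of BCL2A1 was not detectable at this depth and it was not tested.

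**Figure D2:**
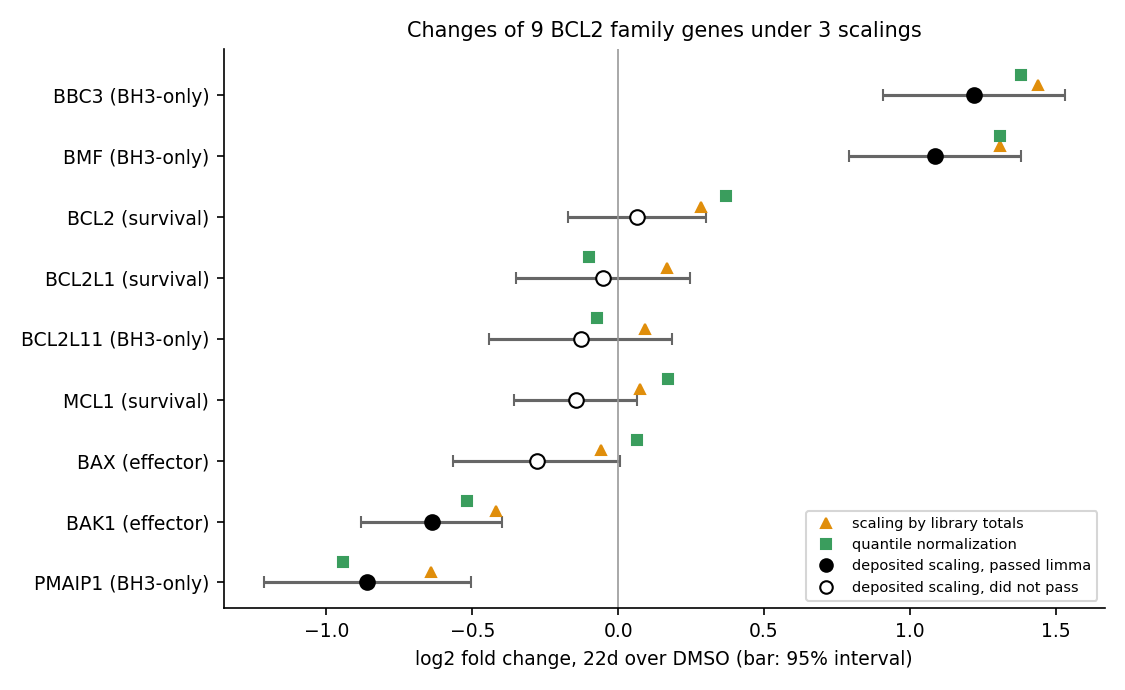
Log2 fold change of the 9 tested genes, 22d over DMSO, as circles with 95% intervals in the deposited scaling (filled where limma passed), with triangles for scaling by library totals and squares for quantile normalization. BBC3 and BMF stay above 1 and PMAIP1 and BAK1 below -0.4 in all 3 scalings, while BCL2L1, BCL2L11, MCL1 and BAX lie on both sides of 0.

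In the authors' deposited table, BBC3, BMF, PMAIP1 and BAK1 had log2 fold changes of 1.18, 1.08, -0.82 and -0.64. The adjusted p-values of these 4 genes in the authors' deposited table were 8.7e-14, 1.6e-12, 2.2e-05 and 1.6e-06. For BAX the authors' deposited table gave -0.275 on the log2 scale, with an adjusted p of 0.093.

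Levels were compared between genes as normalized counts per kilobase of exon, using the union of GENCODE 29 exons; the annotation the authors counted on was not given in the sources used here. BAX was the highest in each group, at 2731 ± 390 per kilobase with 22d and 3314 ± 475 with DMSO, and MCL1 followed at 895.0 ± 30.9 with 22d, against 990.5 ± 55.2 with DMSO (n = 3 each, ± SD). BBC3 ranked 3 of 10 with 22d, at 641.0 per kilobase, and 5 with DMSO, at 279.5. BMF ranked 4 with 22d, at 543.3 per kilobase, and 6 with DMSO, at 254.6, and the libraries of BBC3 and BMF overlapped in each group. BAK1 ranked 5 with 22d, at 417.7, and 3 with DMSO, at 652.4. BCL2 came next to BAK1 in each group, at 329.8 per kilobase with 22d and 314.0 with DMSO, where its libraries overlapped those of BBC3. PMAIP1 ranked 9 with 22d, at 86.0 per kilobase, where its libraries overlapped those of BCL2L1, and 7 with DMSO, at 154.2. BCL2L11 (110.8 with 22d, 120.0 with DMSO) and BCL2L1 (101.6 with 22d, 105.3 with DMSO) were neighbours whose libraries overlapped in each group. BCL2A1 was last in each. These ranks depend on the length used. For BBC3 the union held 3180 bases and the longest coding transcript 1838, and for BCL2 they held 11765 and 7461. With the longest coding transcript as the length, BBC3 would lie above MCL1 with 22d, and BCL2 above BAK1.

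Per kilobase, the BH3-only genes made up 27.9%, 21.9% and 21.4% of the summed level of the 10 members in the libraries with 22d, against 12.7%, 13.2% and 13.3% with DMSO. The groups did not overlap, and 22d replicate 1 was the highest. Within this class only BBC3 and BMF rose (641.0 and 543.3 per kilobase with 22d, 279.5 and 254.6 with DMSO). PMAIP1 fell (86.0 with 22d, 154.2 with DMSO), and BCL2L11 did not pass (110.8 with 22d, 120.0 with DMSO). The effector genes made up 49.4%, 55.2% and 56.2% with 22d, against 64.3%, 65.4% and 62.3% with DMSO, also without overlap. Their summed level per kilobase was 2692, 3356 and 3399 with 22d, against 3988, 4490 and 3423 with DMSO. In these sums DMSO replicate 3 lay close to 22d replicate 3. Most of the effector level was BAX (2731 per kilobase with 22d, 3314 with DMSO), which did not pass. BAK1 fell (417.7 with 22d, 652.4 with DMSO). The survival genes made up 22.3% to 22.9% with 22d and 21.4% to 24.4% with DMSO, which overlapped. These shares sum over the members and carry no test. Within a library they add up to the whole, so a larger share of any class lowers the shares of the others. With the longest coding transcript as the length, a choice made after seeing the data, the BH3-only share was 21.6% with 22d and 11.3% with DMSO.

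**Figure D3:**
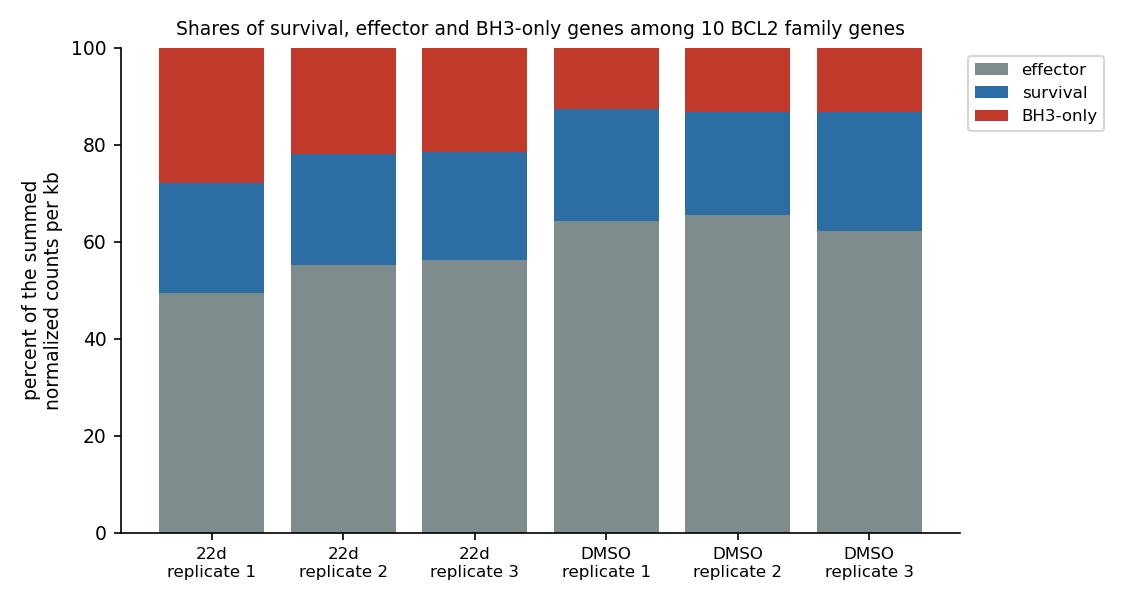
Share of effector (grey), survival (blue) and BH3-only genes (red) in the summed normalized counts per kilobase of the 10 members, 1 bar per library, 22d on the left and DMSO on the right. The BH3-only share is 21.4% to 27.9% with 22d and 12.7% to 13.3% with DMSO. Within that class BBC3 and BMF rose, PMAIP1 fell and BCL2L11 did not pass.

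Ratios of 2 genes within a library do not depend on its scaling, and 3 of them were compared. The log2 ratio of BAX to BCL2 was 0.81, 0.83 and 0.94 with 22d, against 1.29, 1.36 and 0.97 with DMSO. DMSO replicate 3 was close to 22d replicate 3, though the groups did not overlap. The difference was -0.34, with an exact two-sided permutation p of 0.1, the smallest that 3 against 3 libraries allow. The log2 ratio of PMAIP1 to MCL1, the pair that bind each other, was -4.62, -4.11 and -4.35 with 22d, against -3.73, -3.69 and -3.51 with DMSO. That difference was -0.71, again without overlap (exact permutation p = 0.1). The log2 ratio of BCL2L11 to BCL2 was -2.01, -2.43 and -2.77 with 22d, against -2.02, -2.38 and -2.23 with DMSO, a difference of -0.19 within the spread (exact permutation p = 0.5). This value rested on single libraries: it was -0.39 without 22d replicate 1, -0.0087 without 22d replicate 3 and -0.099 without DMSO replicate 1. With 3 comparisons and a floor of 0.1, none of these tests could pass a threshold of 0.05.

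The genes whose log2 values over the 6 libraries, each centred on its own mean, lay closest to those of the 3 members that changed most were sought among 10268 genes averaging 100 or more normalized counts. For BMF they were the acetyltransferase gene KAT2B, at a root mean square distance of 0.04, and PPP1R15A, which encodes the stress-induced phosphatase subunit GADD34, at 0.06. For BBC3 they were ZNF575 (0.11) and GATS (0.12). For PMAIP1 they were CBWD5 (0.04), one of several near-identical gene copies whose reads may be split, and DPCD (0.05). With 6 libraries in 2 groups, such likeness includes the difference between the groups and carries no test.

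Further relatives of the BCL2 family were followed as a list of 15 genes, of which 12 were tested: 2 rose, 2 fell and 8 did not pass, with a median log2 fold change of -0.01, so fewer were called than the 58.0% over all genes tested. BNIP3L, which encodes the mitophagy receptor NIX, rose to 1944 ± 496 normalized counts with 22d, against 556.6 ± 127 with DMSO (SD, n = 3 each), which is 1.80 on the log2 scale with an SE of 0.18 (limma adjusted p = 3.6e-06). BCL2L12 fell by 1.37 on the log2 scale (limma adjusted p = 3.8e-06), but 33.1% of its exonic bases lie in exons of IRF3 on the opposite strand, which held 2631 normalized counts with 22d and 3684 with DMSO. BID, the BH3-only protein cut by caspase-8 to link death receptors to mitochondria, fell by 0.45, a call lost with scaling by library totals (-0.23, adjusted p = 0.0654) and quantile normalization (-0.22, adjusted p = 0.0788). BCL2L2, which encodes the survival protein BCL-W, rose by 0.39, a call lost without 22d replicate 1 (0.29, adjusted p = 0.0611), without DMSO replicate 1 (0.39, adjusted p = 0.0535) or without DMSO replicate 3 (0.37, adjusted p = 0.0529). The BH3-only genes BAD (0.09) and BIK (-0.26) did not pass, and HRK had 1 read with 22d and 0 with DMSO.

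The list of outer membrane partners also holds genes of endoplasmic reticulum proteins, such as BCAP31. Its genes fell in 6 of 9 cases, rose in 2 and did not pass in 1. Their median was -0.50, beside a median of 0.01 and 29.6% lower over all genes tested. With scaling by library totals 5 fell, with a median of -0.28, and under quantile normalization 4 fell, with a median of -0.18. VDAC1, a channel of the outer membrane, fell to 3819 ± 373 normalized counts with 22d, against 6949 ± 418 with DMSO (SD, n = 3 each; limma adjusted p = 1.8e-05). VDAC2, the channel that recruits BAK, did not pass (-0.09, limma adjusted p = 0.48). MTCH2, a receptor for the cut form of BID, fell by 0.69 and BCAP31, an endoplasmic reticulum protein, by 0.77, whereas the fusion gene MFN1 rose by 0.52 and the fission gene DNM1L by 0.49.

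Downstream of the pore, 4 of 15 apoptosome, caspase and IAP genes rose, 7 fell and 4 did not pass, with a median of -0.05, beside 28.5% higher and 29.6% lower over all genes tested. The median was 0.17 with scaling by library totals and -0.22 under quantile normalization. BIRC2, which encodes the caspase and NF-kB regulator cIAP1, rose by 1.14 (limma adjusted p = 1.5e-05), BIRC6 by 0.46 and CASP9, the initiator caspase of this pathway, by 0.38, the last a call lost without DMSO replicate 1 (0.34, adjusted p = 0.0754). BIRC5, which encodes survivin, a protein of mitosis as well as an IAP, fell by 2.10 (limma adjusted p = 1.3e-07). ENDOG, a mitochondrial nuclease gene, fell by 0.98 and HTRA2, a mitochondrial protease gene that counters IAPs, by 0.85, with exons of each overlapped by genes on the opposite strand (39.2% of exonic bases for ENDOG with SPOUT1). The apoptosome scaffold gene APAF1 (0.13) did not pass.

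The list for MCL1 protein turnover also holds genes that act on its partner NOXA rather than on MCL1 itself. Its genes rose in 4 of 12 cases, fell in 3 and did not pass in 5, with a median of 0.28. The share called was close to the 58.0% over all genes tested. With scaling by library totals 8 rose and 3 fell, with a median of 0.51. HUWE1, which encodes the ligase MULE that marks MCL1 for degradation, fell by 0.62. The deubiquitinase genes of this list went in opposite directions: USP13 fell by 0.76 and USP9X rose by 0.62. The kinase genes GSK3B and GSK3A went in opposite directions, at 0.68 and -0.54. The conjugating enzyme gene UBE2F, known for NOXA turnover, rose by 0.69.

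Of 14 tested genes for transcription factors that act on the family, 5 rose, 5 fell and 4 did not pass, with a median of 0.00, beside 28.5% higher and 29.6% lower over all genes tested. The median was 0.22 with scaling by library totals and 0.14 under quantile normalization. TP73 fell by 2.12 on the log2 scale, and E2F1 fell by 2.48. DDIT3, which encodes the stress factor CHOP, rose by 1.22 (limma adjusted p = 0.00045), and by 0.93 at the lowest with any library left out. Exons of MARS on the opposite strand hold 27.2% of the exonic bases of DDIT3. MARS held 2258 normalized counts with 22d and 4314 with DMSO. STAT5A and STAT3 rose by 0.98 and 0.96. Transcript levels of a factor do not measure its activity.

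**Figure D4:**
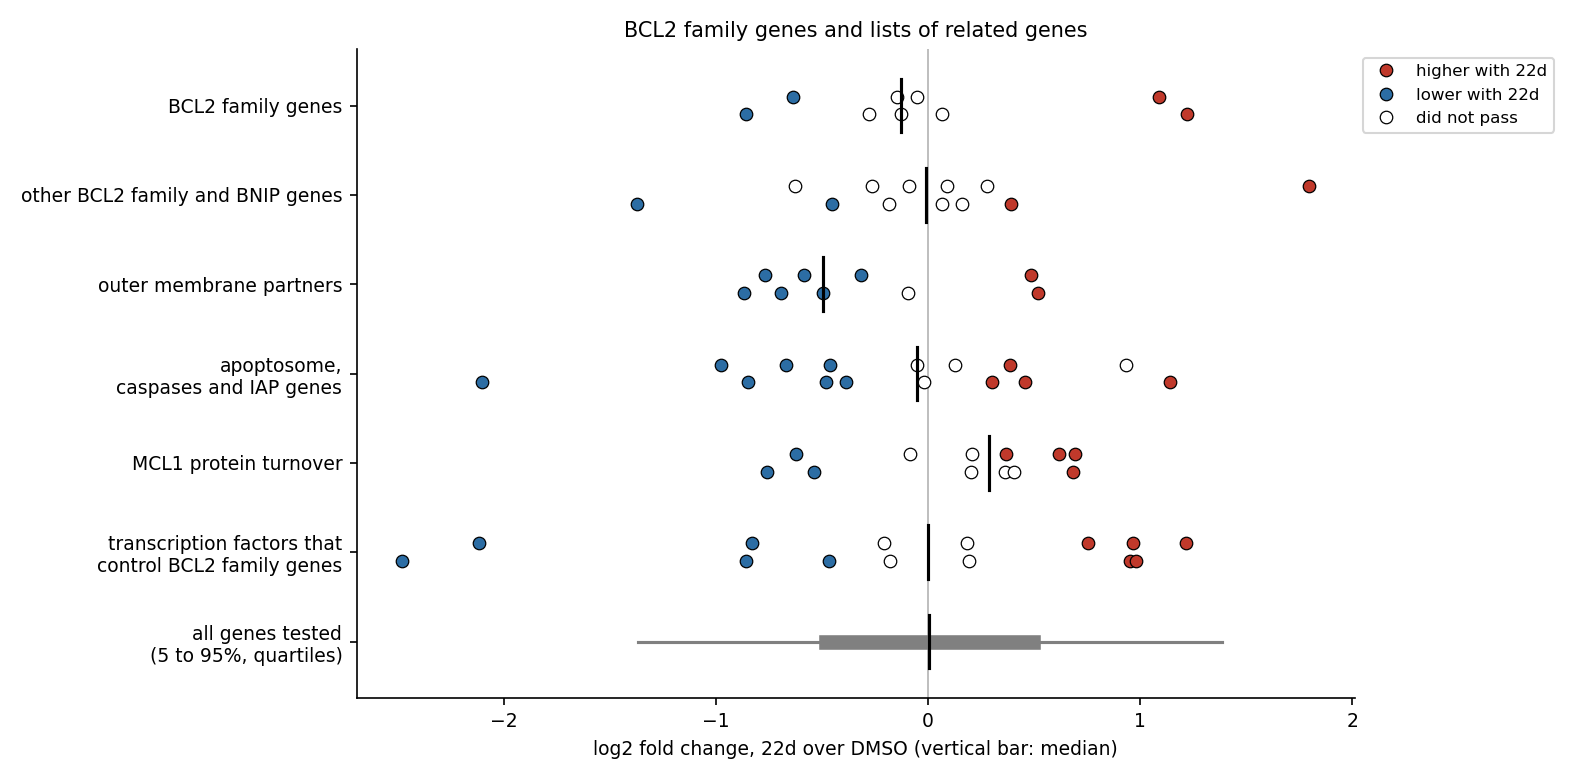
Log2 fold change, 22d over DMSO, of each tested gene of the BCL2 family and of the gene lists (red higher, blue lower, white did not pass; vertical bars are medians), with the 5 to 95% range and quartiles of all genes tested in grey. The medians run from -0.50 for the outer membrane partners to 0.28 for MCL1 protein turnover, and every list holds genes on both sides of 0.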

How the data were processed

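RNA-seq libraries of MV4-11 cells, 3 with 22d and 3 with DMSO, were made from 1 microgram of total RNA, per the labels' protocols. Build hg38 and the tools STAR, HTSeq, DESeq2, cutadapt and FastQC are named, per the submitters' processing notes. No version, annotation or strand setting is recorded there. The values deposited for each library are a normalized signal. Per the file headers, the same table gives the authors' own log2 fold change, its error, a test score, a p-value and an adjusted p-value. Columns were assigned by arm and number. The deposited signal is a read count over 1 size factor per library: 100% of values gave whole reads within 0.001 of a read, and edgeR on them called 7723 genes.

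The main test was limma-trend (limma 3.58.1, R 4.3.3) on log2(value + 1), without a block, on 13297 genes with a mean of at least 10. Fold changes are on that scale, which shrinks those of low genes. Alternatives were edgeR 4.0.16, DESeq2 1.42.0, other scalings, pseudocounts and filters, a replicate block and leaving out each library. Scripts were tested on simulated data. Intervals of fold changes are 95% limma intervals; the limit for a count of 0 covers counting error only. Exon lengths and coordinates are from GENCODE 29. The members, the lists, the rule for named genes (per list the 3 genes that rose most and the 3 that fell most among those called, and genes not called where a role needs them, and the 2 genes nearest in pattern to each of the 3 members that changed most) and the alternatives were chosen with earlier results of these data known. Single markers were named, and LYZ was left out of its list's sum, after their values were seen. Some genes counted in the lists, and 1 searched motif, are not reported here by name.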

Additional observations from a re-analysis of the deposited data

How the results depend on the processing

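The 4 called members kept direction and call in all 16 alternatives: BBC3 between 1.09 and 1.44, BMF between 0.95 and 1.31, PMAIP1 between -1.005 and -0.64, and BAK1 between -0.69 and -0.42. Between 4 and 5 members were called. With 1 library left out, the log2 fold changes of the members not called ran from -0.011 to 0.16 for BCL2, -0.12 to 0.025 for BCL2L1, -0.19 to -0.12 for MCL1, -0.39 to -0.15 for BAX and -0.23 to 0.031 for BCL2L11. Scaling by library totals gave 0.29 for BCL2 (passed), 0.17 for BCL2L1, 0.076 for MCL1 and 0.092 for BCL2L11, in part by construction, as it shifts all genes by 0.22. Quantile normalization gave 0.37 for BCL2 (passed), 0.17 for MCL1 and 0.064 for BAX, and the cause was not tested. All genes called ranged from 6682 to 8044 against 7718. The replicate block left 7419 genes and 4 members called. Same-numbered libraries did not deviate together (correlations of -0.03, -0.02 and -0.10), so no pairing by number was detected. Between libraries of unlike number the correlations ran from -0.112 to 0.174, and so few libraries cannot exclude pairing. Depth limits BCL2A1, at 1 read at most, and to a lesser degree PMAIP1.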
